A study of Mus musculus with 6 samples.

Results

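Here 10 genes of calcium re-uptake and storage were followed on the arrays, taken as every probe whose annotated symbol is Atp2a1, Atp2a2, Atp2a3, Sln, Pln, Casq1, Casq2, Hrc, Srl or Pvalb. They have 18 probes in all and are 10 of the 19057 genes with a named probe. The arrays compared TA (tibialis anterior) muscles of 3-month-old male C57Bl/6J mice, 3 injected with the adeno-associated vector AAV8-Prox1 and 3 with AAV8-NLS-mCherry, a reporter with a nuclear localization signal, with 1 array per muscle. By the methods each mouse received the control vector in the opposite leg, so both groups share mice, but no label ties a muscle to a mouse. Every muscle thus carried AAV8, the promoter of the vectors is not given in the sources used here, and the muscles were measured whole, so that transduced fibres, other fibres and other cells were read together.

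In a muscle fibre, the calcium that starts contraction is released from the sarcoplasmic reticulum and is pumped back by the SERCA calcium ATPases, which the Atp2a genes encode. The small membrane proteins sarcolipin (Sln) and phospholamban (Pln) bind these pumps and lower their activity. Inside the reticulum calcium is held by calsequestrin and other acidic proteins, and in the cytosol of fast fibres parvalbumin takes it up between release and re-uptake. Fast fibres use SERCA1 and calsequestrin 1, while SERCA2a and calsequestrin 2 are known from slow fibres and heart.

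Sln and the pump gene Atp2a2 were higher in AAV8-Prox1 muscles, and the calsequestrin gene Casq1 was lower. The other 7 genes missed the threshold, an adjusted p of 0.05 in limma's empirical Bayes test with Benjamini-Hochberg adjustment over the 45281 probes of the array. The probe of highest mean over the 6 arrays stood for its gene. The 2 higher genes stand against a background of 5.23% of all genes called higher, and the 1 lower gene against 4.21% called lower. Among the 6733 genes with a mean log2 signal of 7 or more, the level used as the limit above background, these shares were 13% and 11.3%, and 9 of the 10 genes belong to that class. The muscles of both groups did not overlap for 4 of the 10 genes, against 23.3% of all genes. This share was not computed for the genes above background, so 23.3% is not a matched background. The median log2 fold change was 0.00 over the 10 genes and 0.00 over all genes. Because whole muscle was measured, fewer fibres of a kind and less RNA per fibre cannot be told apart.

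**Figure D1:**
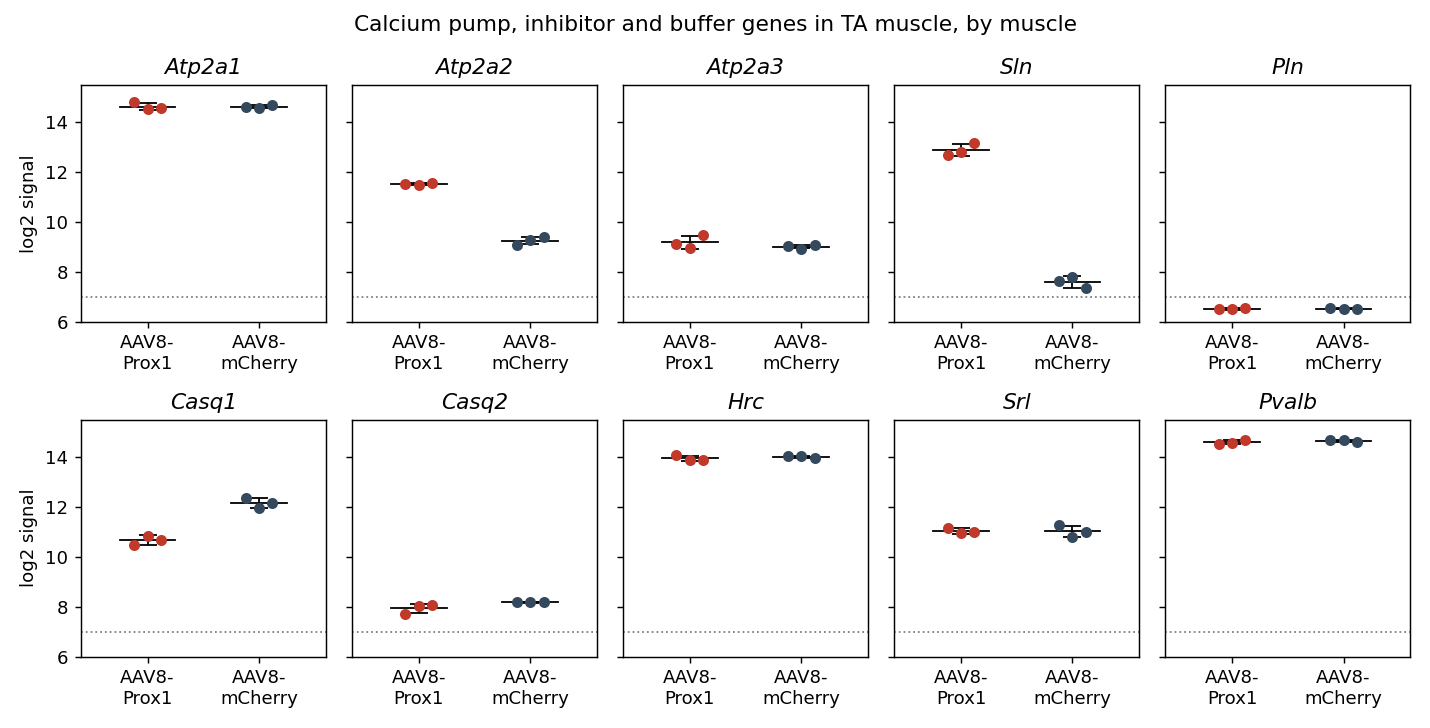
Log2 signal (vertical axis) of the brightest probe of each of the 10 genes in every muscle, with AAV8-Prox1 in red and AAV8-mCherry in dark blue. Bars are the mean and SD of 3 muscles and the dotted line marks a log2 signal of 7; Sln and Atp2a2 are higher and Casq1 is lower with AAV8-Prox1, with no overlap between the groups.

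The values are log2 signals that the authors had quantile-normalized. Each array had a median of 6.61, and 74 probes per array reached 14. All 8 fast fibre markers had mean log2 signals above background, and so had 6 of 8 slow fibre markers. Signal above background thus does not show a fast-fibre origin. Of the fast markers 6 were lower with AAV8-Prox1. Of the slow markers 5 were higher, among them Tnni1, which was under 7 in all arrays. Expressed as summed linear signal with background included, the slow markers gave 45500 to 54000 in AAV8-Prox1 muscles and 8790 to 14100 in control muscles, and the fast markers 113000 to 119000 and 142000 to 143000. The fast markers Actn3, Myl1, Mylpf and Tnnc2 were above 14 in all arrays, near the top of the range. A change in the fast sum may thus be understated. Of 5 measured markers of regenerating fibres 3 were higher, Chrna1, Chrng and Ncam1 (log2 fold changes 0.90, 0.45 and 2.42). The others, Myh8 and Myog, were not called (0.15 and -0.003, adjusted p = 0.839 and 0.991 from limma), and Myh3 had no probe. The summed signal of these markers was 1900 to 2510 with AAV8-Prox1 and 891 to 1200 in controls. Of 7 fibroblast markers 1 was higher (5100 to 6110 with AAV8-Prox1 and 3280 to 4630 in controls, with Col1a2 and Col3a1 under 7 in all arrays), and so was 1 of 7 measured macrophage markers (1240 to 1420 and 912 to 1130, with Adgre1, C1qa, Cd163 and Csf1r under 7 in all arrays). The part of these shifts in the results below was not tested. The 2 probes of Prox1 itself lay between 6.42 and 6.62 in all 6 arrays, at background, so they give no check of the vector.

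Among the pump genes, Atp2a2 changed and Atp2a1 and Atp2a3 did not pass. Atp2a2, which encodes SERCA2, had log2 signals of 11.52, 11.50 and 11.58 in AAV8-Prox1 muscles, against 9.10, 9.28 and 9.39 in control muscles. The AAV8-Prox1 muscles thus lay within 0.08 of each other and above each control muscle. The log2 fold change was 2.28 (95% interval 2.11 to 2.44, SE 0.07, adjusted p = 1.52e-05 from limma), or 4.85-fold, which was the 9th highest among the 997 genes called higher. Its 3 other probes moved less. The second probe, annotated to the same RefSeq transcript, gave 8.61, 8.39 and 8.67 with AAV8-Prox1 and 7.13, 7.20 and 7.39 in controls, and was also called higher at a log2 fold change of 1.32 (adjusted p = 0.000312). The third probe, which is annotated to a cDNA entry and not to that transcript, had 7.55, 7.59 and 7.62 with AAV8-Prox1 and 7.42, 7.37 and 7.47 in controls. Its groups did not overlap, but with a log2 fold change of 0.17 (95% interval 0.07 to 0.26) it missed the threshold (adjusted p = 0.0554). The fourth probe had log2 signals under 7 in all arrays. Of all probes on the array, 3.16% were called higher and 2.86% lower, while of the 18 probes here 3 were higher and 1 was lower. With the mean of the 4 Atp2a2 probes the log2 fold change was 0.96, still called (adjusted p = 9.64e-05).

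Atp2a1 encodes SERCA1, the pump of fast fibres, and its single probe gave 14.80, 14.54 and 14.56 in AAV8-Prox1 muscles and 14.62, 14.59 and 14.69 in control muscles. The groups overlapped, with a log2 fold change of 0.00 (95% interval -0.17 to 0.17, adjusted p = 1 from limma). These signals lie near the top of the range, so a change in RNA may be understated. Atp2a3 encodes SERCA3, known mainly from blood, endothelial and epithelial cells. Its brightest probe had 9.11, 8.97 and 9.47 with AAV8-Prox1 and 9.04, 8.94 and 9.08 in controls, again with overlap (log2 fold change 0.16, 95% interval -0.11 to 0.44, adjusted p = 0.627). A dimmer probe had 7.15, 7.01 and 7.07 with AAV8-Prox1 and 6.95, 6.91 and 6.96 in controls, without overlap and without passing (log2 fold change 0.14, adjusted p = 0.153), and the third was under 7 in all arrays. In the same muscles 2 of 8 endothelial markers were lower, with a summed linear signal of 3620 to 3920 with AAV8-Prox1 and 4530 to 5460 in controls and Kdr under 7 in all arrays. All 6 measured lymphocyte and platelet markers were under 7 in all arrays, at 581 to 591 and 578 to 596. Their part in the Atp2a3 signal was not tested.

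**Figure D2:**
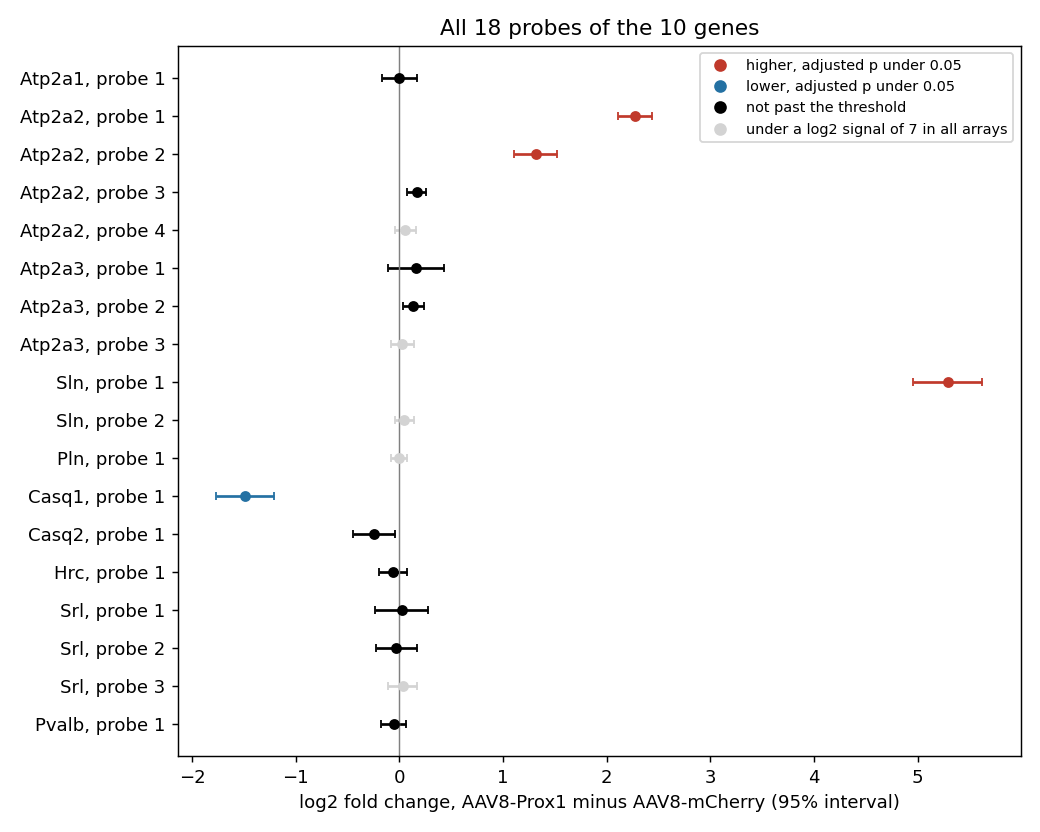
Log2 fold change, AAV8-Prox1 minus AAV8-mCherry (horizontal axis), of each of the 18 probes with its 95% interval from limma, ordered by gene and, within a gene, by mean signal. Red and blue mark the 4 probes called, black the probes not past the threshold and grey the 5 probes under a log2 signal of 7 in all arrays; the Atp2a2 probes run from 0.06 to 2.28.

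Of the pump inhibitors, Sln showed the widest shift of the 10 genes. Its brighter probe had log2 signals of 12.70, 12.80 and 13.16 in AAV8-Prox1 muscles, against 7.65, 7.79 and 7.35 in control muscles. The lowest AAV8-Prox1 muscle was thus 4.91 above the highest control muscle on the log2 scale. The log2 fold change was 5.29 (95% interval 4.96 to 5.62, SE 0.14, adjusted p = 9.51e-06 from limma), a 39.1-fold difference and the second highest among genes called higher. The control signals lie close to background, so the size of this fold depends on the background and may be understated. The other Sln probe, annotated to the same transcript, was at 6.53, 6.54 and 6.48 with AAV8-Prox1 and 6.43, 6.45 and 6.52 in controls. It stayed at background in every muscle, so on these arrays the rise rests on 1 probe. The mean of both Sln probes gave a log2 fold change of 2.67 (adjusted p = 7.91e-06 from limma).

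Pln, whose protein is known as the inhibitor of SERCA2 in heart and slow fibres, was at background. Its single probe gave 6.50, 6.50 and 6.56 with AAV8-Prox1 and 6.54, 6.51 and 6.52 in controls (adjusted p = 0.983 from limma), and no fold is given. A probe at background does not show that a transcript was absent, since the triad protein gene Trdn and the chaperone gene Hspa5, both active in muscle, were also under 7 in all arrays. Sln, Atp2a2, Pln and Casq2 are also genes of the heart. Of 6 measured cardiac markers, Myh6, Nppa, Myl7, Tnni3 and Mybpc3 were under 7 in all arrays and the sixth, Myl4, was lower, so that the summed linear signal was 1310 to 1520 with AAV8-Prox1 and 1880 to 2240 in controls. None of 8 smooth muscle and pericyte markers was called, at 6230 to 7280 and 7720 to 8090, with Cnn1 and Tagln under 7 in all arrays.

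Among the genes of proteins that hold calcium in the reticulum, that of calsequestrin 1 fell. Casq1 had log2 signals of 10.48, 10.85 and 10.69 in AAV8-Prox1 muscles, against 12.36, 11.96 and 12.16 in control muscles, with no overlap. The log2 fold change was -1.49 (95% interval -1.76 to -1.21, SE 0.12, adjusted p = 0.000632 from limma), a 2.80-fold lower signal, by the only probe of the gene. It was the 9th lowest among 802 genes called lower. Casq2, the calsequestrin of heart and slow fibres, had 7.71, 8.02 and 8.06 with AAV8-Prox1 and 8.18, 8.17 and 8.17 in controls. The groups did not overlap, but the AAV8-Prox1 muscles spread more widely and the difference did not pass (log2 fold change -0.24, 95% interval -0.44 to -0.04, adjusted p = 0.202).

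Hrc encodes the histidine-rich calcium-binding protein of the reticulum lumen, and Srl encodes sarcalumenin, a luminal calcium-binding glycoprotein that is known to stabilize the pump. Hrc had 14.08, 13.87 and 13.90 with AAV8-Prox1 and 14.03, 14.04 and 13.96 in controls. The groups overlapped near the top of the range (log2 fold change -0.06, 95% interval -0.20 to 0.08, adjusted p = 0.763 from limma). Srl had 11.16, 10.97 and 10.99 with AAV8-Prox1 and 11.26, 10.81 and 10.98 in controls by its brightest probe, with overlap (log2 fold change 0.02, 95% interval -0.23 to 0.28, adjusted p = 0.972). A second Srl probe had a log2 fold change of -0.03 (95% interval -0.23 to 0.17), and the third was under 7 in all arrays. Both intervals of Srl exclude a change of the size seen for Casq1.

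Pvalb encodes parvalbumin, the cytosolic calcium buffer of fast fibres. Its single probe gave 14.52, 14.58 and 14.69 with AAV8-Prox1 and 14.68, 14.68 and 14.59 in controls. The groups overlapped at a log2 fold change of -0.05 (95% interval -0.18 to 0.07, adjusted p = 0.758 from limma). As for Atp2a1, the signals lie near the top of the range and a change may be understated.

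Related genes were set against each other within a muscle. The difference Casq2 minus Casq1 stood 1.22, 1.16 and 1.36 above the control mean on the log2 scale in the 3 AAV8-Prox1 muscles, and at -0.19, 0.20 and 0.00 in the 3 control muscles. The mean shift was 1.24, while Casq2 itself was not higher, with its log2 fold change of -0.24. For Atp2a2 minus Atp2a1 the AAV8-Prox1 muscles stood at 2.10, 2.34 and 2.40 and the control muscles at -0.14, 0.07 and 0.08. Because the Atp2a1 probe is near the top of the range, this shift repeats the change of Atp2a2 and gives no measure of the ratio of both RNAs. When a gene's probes were averaged it was 0.96. For both differences each AAV8-Prox1 muscle lay above each control muscle. The exact permutation test, two-sided and without pairing, gave p = 0.1 for each, the smallest it can give with 3 muscles against 3 (0.1 after Benjamini-Hochberg adjustment over 3 differences). The third of these, Sln minus Pln, is not given, since Pln was at background and the difference only restates Sln.

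**Figure D3:**
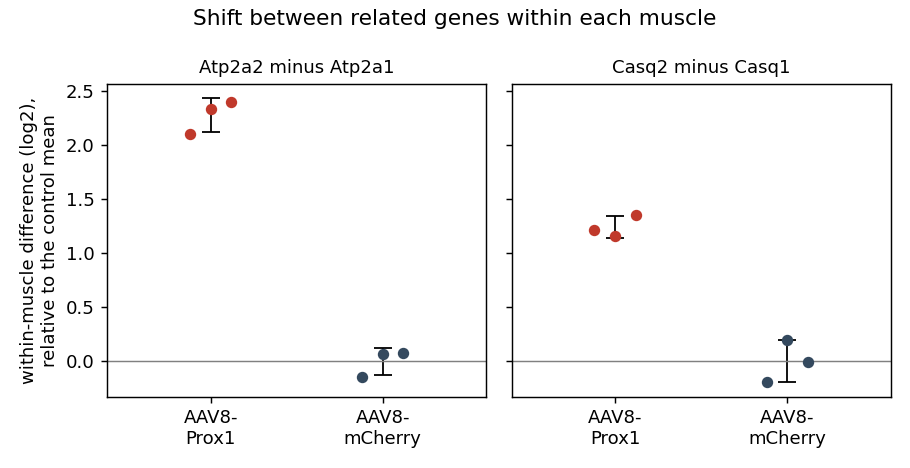
Difference in log2 signal between related genes within each muscle, relative to the mean difference of the control muscles (vertical axis), for AAV8-Prox1 (red) and AAV8-mCherry (dark blue). Bars span 1 SD on either side of the mean of 3 muscles; the groups do not overlap, and the Atp2a1 probe is near the top of the range.

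The windows before the start sites of the calsequestrin genes are shown because these related genes changed unequally. RefSeq windows were found for 7 of the 10 genes, with 8 windows in all. Atp2a2, Sln and Srl had no window, so nothing below covers the higher genes Sln and Atp2a2. The 250 bases before the start are printed with E-boxes (CANNTG, read on both strands), the motif bound by myogenic factors such as MyoD, in capitals. The Casq1 window is chr1:172219896-172220145 on the minus strand and the Casq2 window is chr3:102086165-102086414 on the plus strand, both in GRCm38.p6.
Casq1: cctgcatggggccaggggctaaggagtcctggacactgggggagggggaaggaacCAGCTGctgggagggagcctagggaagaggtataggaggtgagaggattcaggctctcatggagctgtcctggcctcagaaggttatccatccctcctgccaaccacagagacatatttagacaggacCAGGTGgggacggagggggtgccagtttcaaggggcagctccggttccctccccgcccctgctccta
Casq2: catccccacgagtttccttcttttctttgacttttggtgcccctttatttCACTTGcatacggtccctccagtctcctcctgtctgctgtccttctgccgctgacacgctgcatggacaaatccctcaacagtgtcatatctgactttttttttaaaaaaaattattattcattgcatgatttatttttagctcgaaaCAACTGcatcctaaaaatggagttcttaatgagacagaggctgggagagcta
Each window has 2 E-boxes, which begin 195 and 67 bases before the start in Casq1 and 200 and 52 bases before it in Casq2. An E-box was present in 66.2% of all 32851 windows of this length, so its presence does not set these genes apart. The Casq1 window had a GC content of 61.6% and no match to GGAAA, the core of the NFAT motif on either strand, while the Casq2 window had 41.6% and 1 match. GGAAA was found in 55.6% of all windows. The Casq2 window also had 1 match to the MEF2 motif, as did the first of the 2 Pvalb windows, against 2.92% of all windows. No MEF2 match was found in the windows of Casq1, Atp2a1, Atp2a3, Pln and Hrc or in the other Pvalb window. The MCAT motif CATTCC was in none of the 8 windows and in 12.6% of all. The shares of all windows are not matched for GC content. A match describes letters and is not a measured binding site.

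Other genes of calcium transport and binding were read beside the 10. Of 64 listed genes 56 were measured, of which limma called 1 higher and 2 lower at the same threshold, with 53 not called. These are 1.79% higher and 3.57% lower, against 5.23% and 4.21% of all genes, and the lower share is near that of all genes. With a gene's probes averaged, 4 of the 56 (7.14%) were lower, against 3.74% of all genes. For 33 of the 56 the mean signal was above background. Of all genes with such a mean, 13% were higher and 11.3% lower, so the shares of all genes are not a matched background. The median log2 fold change was 0.00. The higher gene was Micu2, a gatekeeper of the mitochondrial calcium uniporter, with 9.01, 9.09 and 8.93 in AAV8-Prox1 muscles and 8.57, 8.58 and 8.71 in control muscles (log2 fold change 0.39, SE 0.06, adjusted p = 0.00702). A second Micu2 probe pointed the same way without passing (log2 fold change 0.24, adjusted p = 0.108).

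The first of the 2 lower genes was Camk2a, the gene of the alpha subunit of the calcium- and calmodulin-dependent kinase CaMKII. It had 10.03, 9.83 and 10.02 with AAV8-Prox1 and 10.53, 10.40 and 10.52 in controls (log2 fold change -0.52, SE 0.06, adjusted p = 0.00352 from limma). A second Camk2a probe was also lower, at a log2 fold change of -0.40 (adjusted p = 0.00453), while the third, annotated to another transcript, was not called (-0.14, adjusted p = 0.325). The other lower gene was Sdf4, which encodes a calcium-binding protein of the Golgi lumen, with 7.86, 7.74 and 7.69 in AAV8-Prox1 muscles against 8.02, 8.17 and 8.13 in controls (log2 fold change -0.34, adjusted p = 0.014). By group, 1 of 13 measured pump regulators and calsequestrin anchors was called (Camk2a), none of 9 genes of plasma membrane and Golgi transport, 1 of 10 of mitochondrial transport (Micu2), none of 13 cytosolic calcium-binding genes and 1 of 11 luminal ones (Sdf4). Of the 9 genes of plasma membrane and Golgi transport, 5 were under 7 in all arrays. The widest called change in the list, that of Camk2a, was smaller than those of Sln, Atp2a2 and Casq1.

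**Figure D4:**
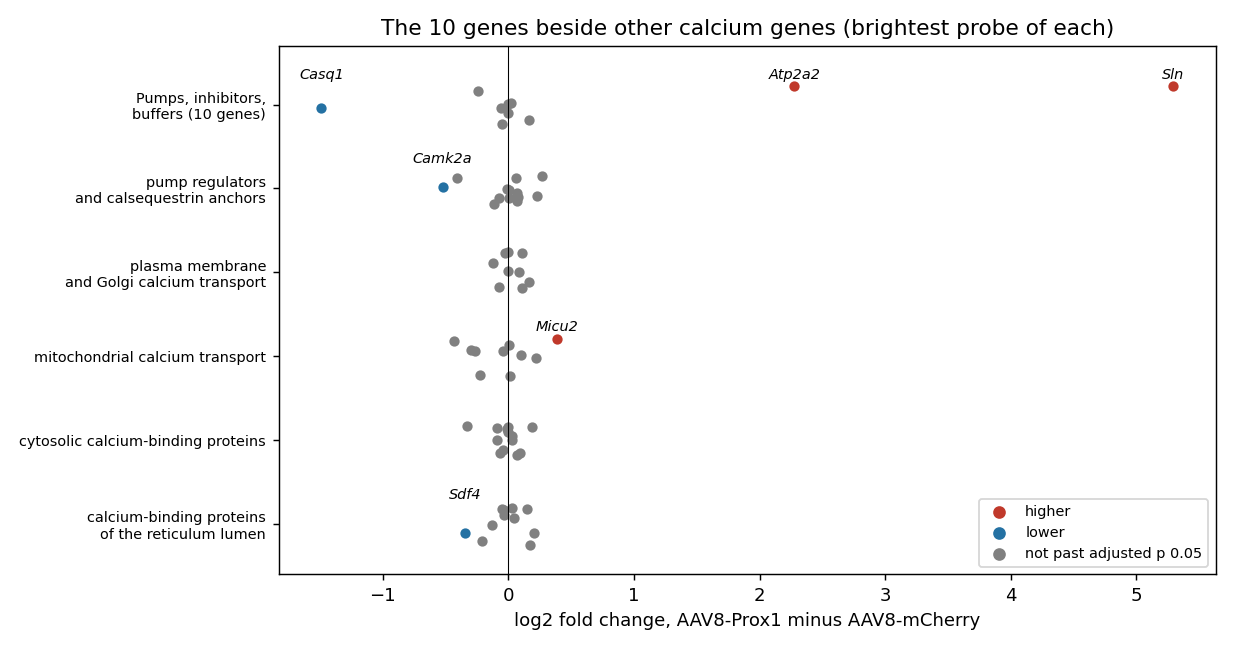
Log2 fold change, AAV8-Prox1 minus AAV8-mCherry (horizontal axis), of the brightest probe of the 10 genes (top row) and of 56 other measured calcium genes in 5 groups; each point is a gene and the vertical scatter within a row carries no meaning. Red and blue points passed an adjusted p of 0.05, and the 3 called genes outside the top row lie between -0.52 and 0.39.

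The profiles most like those of the 3 changed genes were sought over the 6 arrays, as the smallest root mean square difference after each probe was centred on its own mean. For Sln this was Tnnc1, the troponin C of slow fibres and heart, at 0.31 on the log2 scale, with a log2 fold change of 5.48 against 5.29 for Sln. The next were the slow regulatory light chain Myl2 at 0.83 and the titin-associated Ankrd1 at 1.05, with log2 fold changes of 3.77 and 3.34. This distance is not scaled to the size of a change, so few genes could lie near Sln with its large change. Closest to Atp2a2 were Tmem53 at 0.11, 6430548M08Rik at 0.16 and Gga2 at 0.22. Closest to Casq1 were Amhr2 at 0.10, the fast myosin heavy chain Myh1 at 0.11 and the irisin precursor Fndc5 at 0.14. The log2 fold change was -1.36 for Myh1 and -1.48 for Fndc5, beside -1.49 for Casq1. With 2 groups of 3 muscles such likeness mostly restates the group difference.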

How the data were processed

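RNA of the 6 muscles was labelled and hybridised to Illumina Mouse WG-6 v2 BeadChips by the authors, who checked quality in GenomeStudio and quantile-normalized the signals in Chipster. The deposited values are log2 signals rounded to 2 decimals, and a background correction is not given in the sources used here. The raw signal table was left out, because its 12 columns of sample values carry names that cannot be tied to the labels. Of 45281 probes, 34885 carry 1 gene symbol, 18 several and 10378 none, and all entered the adjustment of p values.

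The comparison used lmFit and eBayes of limma 3.58.1 under R 4.3.3 with the 2 groups as the only term, and p values were adjusted by Benjamini-Hochberg, with calls at 0.05. The script was tested on simulated data. A log2 signal of 7 stood for the limit above background in place of the unused detection p values. The members and lists were chosen with earlier results of these data known. All 10 members are named, as are the 3 nearest profiles of Sln, Atp2a2 and Casq1. Of each calcium group, up to 4 genes with the smallest adjusted p that passed above background are named. Marker genes are named where they were at background. Myl4, the markers of regenerating fibres and the fast markers near the top of the range were named after their values were seen. By the methods each mouse carried both vectors, 1 in each leg, but the labels tie no muscle to a mouse, so the fit is unpaired. The number of arrays limits the precision. Gene symbols come from the platform annotation of the array, with RefSeq synonyms used to find listed genes under older symbols, and promoter windows from RefSeq (GRCm38.p6). Alternatives were averaging a gene's probes, taking its probe with the smallest p, the replicate number as a block, eBayes with trend and robust estimation, a filter on dim probes, centring of arrays, a minimum absolute log2 fold change of 0.5 and leaving out each array.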

Additional observations from a re-analysis of the deposited data

How the results depend on the processing

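The calls of 2 higher genes (Sln and Atp2a2) and 1 lower gene (Casq1) among the 10 held under each of the 7 alternatives run and in the 6 fits that leave out 1 array. Over those 6 fits the log2 fold changes were 5.15 to 5.39 for Sln, 2.20 to 2.34 for Atp2a2 and -1.59 to -1.39 for Casq1. With the mean of all probes Sln had 2.67 and Atp2a2 0.96, since the other Sln probe is at background and the other Atp2a2 probes moved less or are at background. The fitted differences of Pln, at -0.023 to 0.007, and Srl, at -0.08 to 0.145, changed sign when 1 array was left out. Those of Atp2a1, at 0.00 with all 6 arrays, ran from -0.083 to 0.047. Pln, Srl and Atp2a1 were called in none of these fits, and the cause was not tested. For Pln, at background, these values give no direction. The filter on dim probes removed Pln. With a minimum absolute log2 fold change of 0.5, 352 genes were higher and 280 lower, because fewer genes meet both limits. Among the other calcium genes that minimum gave 0 higher and 1 lower. The probe with the smallest p gave 2 higher, the mean of all probes 4 lower, and leaving out 1 array 1 to 2 higher and 1 to 3 lower; the counts differed by over 1.5 times without AAV8-Prox1 replicate 2 (2 higher, 1 lower) and without control replicate 3 (1 lower). With the replicate number as a block, 721 genes were higher and 559 lower, and the calls for the 10 genes were the same. Although both groups share mice, it is not known whether equal numbers mark 1 mouse: deviations from the group means correlated at -0.18, 0.05 and -0.12 between equal numbers, and at up to 0.23 between unlike numbers (AAV8-Prox1 replicate 3 with control replicate 1), across probes above background. Normalization of the raw signals was not run, since their columns could not be assigned to samples. Signals near the top of the range (Atp2a1, Hrc, Pvalb) and at background (Pln) limit what these arrays can show.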
